A study of Homo sapiens with 8 samples.

Results

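The regulators of G protein signalling described here were RGS2 and 9 other genes of the same family, RGS3, RGS4, RGS5, RGS10, RGS12, RGS16, RGS17, RGS19 and RGS20. They are 10 of the 20719 gene identifiers counted, and all 10 were found by symbol. RGS2 was selected on its footprint counts, which were lower in the SMARCB1 cells given doxycycline than in those given vehicle. The other members were taken by name. The values of RGS2 in SMARCB1 cells with and without doxycycline are therefore a description and carry no test.

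Ribosome-protected fragments were sequenced from G401 cells, an established line grown from a rhabdoid tumor of the kidney and without SMARCB1, a core subunit of the mSWI/SNF chromatin remodelling complexes. Cells carried a doxycycline-inducible SMARCB1, or GFP as the control, and received doxycycline (Dox) at 0.1 µg/ml or the vehicle DMSO for 12 h. The 4 groups were SMARCB1 DMSO, SMARCB1 Dox, GFP DMSO and GFP Dox, with 2 libraries in each and 8 in all. Cells of 6 plates were pooled for each condition, and the experiments were done in duplicate without a statement of what the duplicates shared, so each p-value measures only the spread between these libraries, which may be technical. The GFP line differs from the SMARCB1 line in its transgene and in its derivation, and these cannot be told apart.

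When a hormone or transmitter binds a G protein-coupled receptor, the alpha subunit of a heterotrimeric G protein exchanges GDP for GTP and acts on enzymes such as phospholipase C beta or adenylyl cyclase. RGS proteins share a conserved RGS domain that speeds GTP hydrolysis by the alpha subunit and so shortens the signal. RGS2 acts preferentially on the Gq class, most of the small members act on Gi and Gq, and RGS17, RGS19 and RGS20 form a subfamily with a cysteine string near the N terminus. RGS3 and RGS12 are long proteins in which other domains accompany the RGS domain.

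The coding sequences differ at their starts in ways that bear on how ribosomes read them and how long the proteins last. RGS2 mRNA is known to be read from several in-frame AUG codons, which gives proteins with different N termini. RGS4, RGS5 and RGS16 are known for a cysteine just after the initiator methionine, which exposes them to the N-degron pathway of protein degradation. The first 105 coding bases of RGS2 are printed with each in-frame ATG in capitals, and the first 60 coding bases of RGS4, RGS5 and RGS16 with the codon after the ATG in capitals. All 4 were read 5′ to 3′ from GRCh38 with the canonical coding sequences of GENCODE 44. The RGS2 stretch lies in a coding exon on the plus strand at chr1:192809072-192809176, and the other 3 run across an exon junction.
RGS2: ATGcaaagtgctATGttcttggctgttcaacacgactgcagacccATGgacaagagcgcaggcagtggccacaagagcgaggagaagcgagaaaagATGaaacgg
RGS4: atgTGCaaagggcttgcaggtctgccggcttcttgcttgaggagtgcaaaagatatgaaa
RGS5: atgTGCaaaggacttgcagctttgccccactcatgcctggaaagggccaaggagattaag
RGS16: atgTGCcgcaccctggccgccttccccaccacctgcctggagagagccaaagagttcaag
In this stretch of RGS2 the in-frame ATG codons were codons 1, 5, 16 and 33, counted from the start. The codon after the start was TGC (cysteine) in RGS4, RGS5 and RGS16 and in none of the other 7 members. The counts are sums over a whole coding sequence, so footprints that began at different ATG codons of RGS2 were not separated.

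RGS2 (ENSG00000116741) lies at chr1:192809039-192812275 on the plus strand of GRCh38, and its coding sequence has 633 bases. RGS4 at chr1:163068775-163076802 and RGS5 at chr1:163111121-163321791 are neighbours separated by 34.3 kb on opposite strands. RGS16 lies at chr1:182598623-182604389, so 4 of the 10 members are on chromosome 1. The others are RGS3 at chr9:113444731-113597743, RGS10 at chr10:119499817-119542719, RGS12 at chr4:3293021-3439913, RGS17 at chr6:153004459-153131282, RGS19 at chr20:64073181-64079988 and RGS20 at chr8:53851795-53959303. No coding base of any member is shared with the coding sequence of another gene. Of all windows of 28 bases in the coding sequence, 13.9% in RGS17 and 2.33% in RGS10 occur more than once in the genome, and 0% in the other 8 members.

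The libraries held 5924443 to 14000039 counts on coding sequences. Non-unique alignments were 25.6% to 39.7% of their sum with uniquely aligned reads in 7 libraries. In GFP Dox replicate 1 they were 56.4%, and that library stands apart. The induced gene, SMARCB1, was counted 2553 and 1750 times with Dox in its own line and 0 times in the other 6 libraries. VIM, KRT8 and KRT18, which rhabdoid cells express, were at 746 CPM or more in every library, and of 4 leukocyte markers PTPRC and CD3E had 0 counts throughout, LYZ at most 1 count and CD68 11.9 to 37.9 CPM. Levels are CPM, the counts scaled to a common library total by edgeR. In pooled cells, fewer cells expressing a gene and fewer footprints per cell cannot be told apart.

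RGS10 was the member with the densest footprints, 8 of 10 members were detected, and RGS16 and RGS17 had 0 counts in every library. Levels of different genes were compared as CPM per kilobase of coding sequence, averaged over the 4 groups. RGS10, a short member abundant in immune cells and brain, stood at 221 CPM per kb, followed by RGS2 at 54.4 and RGS20 at 34.1. RGS3 at 20.8, RGS19 at 19.0 and RGS5 at 13.3 came next, and RGS12 at 4.55 and RGS4 at 0.416 were lowest. RGS10 was at 167 CPM per kb or more in every library, above the highest library of any other member, RGS2 at 92.0.

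The order of the members differed between groups mainly by the place of RGS2, RGS3 and RGS5. RGS2 was the next after RGS10 in SMARCB1 DMSO, GFP DMSO and GFP Dox, at 58.6 ± 17.7, 79.9 ± 17.1 and 63.7 ± 1.55 CPM per kb (SD, n = 2 libraries each). In SMARCB1 Dox it stood at 15.4 ± 2.68 CPM per kb (SD, n = 2), behind RGS20 at 35.2 ± 19.4 and RGS5 at 19.7 ± 8.09 and level with RGS19 at 15.4 ± 4.57. The libraries of RGS2 there overlapped those of RGS5 and RGS19, so these 3 neighbours did not differ beyond their spread. In SMARCB1 DMSO the libraries of RGS2 overlapped those of RGS20, and in both GFP groups RGS2 lay above every member but RGS10 in both libraries. In CPM per kb, RGS5 was above RGS3 in both groups of the SMARCB1 line and below it in both groups of the GFP line. The libraries of these 2 members did not overlap in any of the 4 groups. This order depends on the coding length: in CPM, RGS3 was above RGS5 in every group, at 51.4 against 14.0 in SMARCB1 DMSO and 38.8 against 13.0 in SMARCB1 Dox. Which coding isoform of RGS3 was read was not tested.

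**Figure D1:**
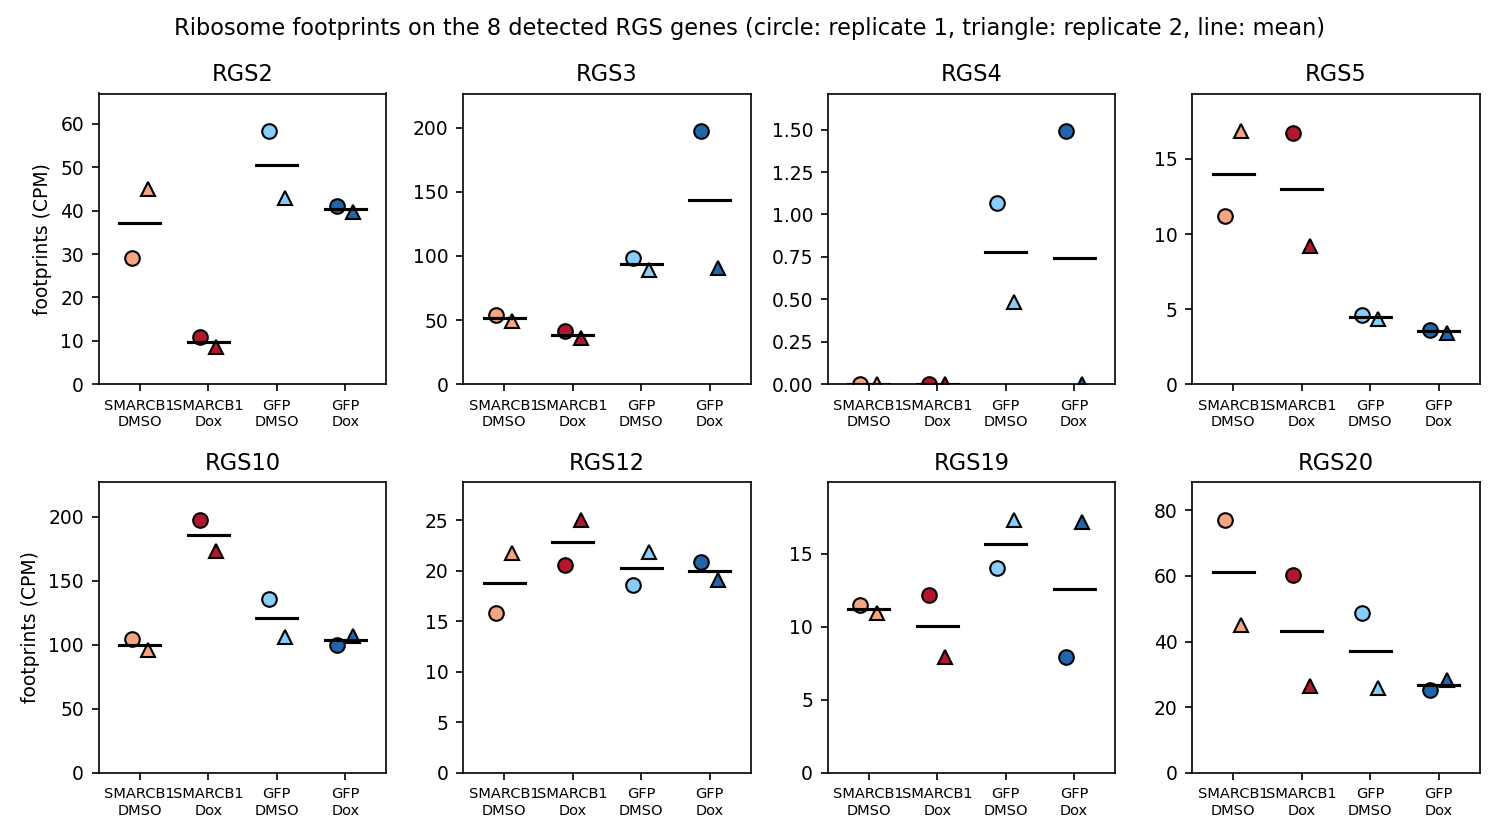
Footprints in CPM (vertical axes, linear, each from 0) for the 8 detected members in the 4 groups. Circles are replicate 1, triangles replicate 2 and black lines the means. RGS2 in SMARCB1 Dox, at 11.0 and 8.56 CPM, lies below its other 6 libraries, and RGS5 is higher in the 4 SMARCB1-line libraries than in the 4 GFP-line libraries.

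RGS2, the Gq-directed member, had 29.2 and 45.0 CPM in the SMARCB1 DMSO libraries, from 175 and 578 counts. In SMARCB1 Dox it had 11.0 and 8.56 CPM, from 131 and 54 counts. In GFP DMSO it had 58.2 and 42.9 CPM and in GFP Dox 41.0 and 39.6 CPM, from 248 to 708 counts. The SMARCB1 Dox libraries were the lowest of the 8 and did not overlap any other group. Both lay below both SMARCB1 DMSO libraries, as did 18.3% of all genes tested, and nothing is read from this since it chose the gene. The group means were 37.1 ± 11.2, 9.76 ± 1.70, 50.6 ± 10.8 and 40.3 ± 0.984 CPM (SD, n = 2 each), in the order SMARCB1 DMSO, SMARCB1 Dox, GFP DMSO and GFP Dox. Between SMARCB1 Dox and SMARCB1 DMSO the fitted log2 fold change was -1.92 with a standard error (SE) of 0.30, and summed counts gave a ratio of 0.253 with a 95% counting interval of 0.215 to 0.298. Counting intervals here cover counting error only.

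RGS2 with Dox but no SMARCB1 was read in the GFP line, which played no part in its choice. There RGS2 had a log2 fold change of -0.33 (SE 0.29, 95% interval -0.94 to 0.29) and an adjusted p of 1 by edgeR quasi-likelihood with Benjamini-Hochberg correction over 11097 genes. Both GFP Dox libraries lay below both GFP DMSO libraries, as did 13.2% of all genes tested. The log2 difference between the Dox effects of the SMARCB1 line and the GFP line was -1.60 (SE 0.41) for RGS2, again as a description.

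RGS10 footprints in SMARCB1 cells were at 104 and 95.8 CPM with DMSO and at 197 and 173 CPM with Dox. In GFP cells they were at 135 and 106 CPM with DMSO and at 99.9 and 107 CPM with Dox. The SMARCB1 Dox libraries were the highest of the 8 and overlapped no other group. The log2 fold change in SMARCB1 cells was 0.89 (SE 0.23, 95% interval 0.40 to 1.39), with an unadjusted p of 0.00167 and an adjusted p of 0.364 by edgeR quasi-likelihood with Benjamini-Hochberg correction. It stayed between 0.79 and 1.00 under the other settings tried, with adjusted p from 0.0696 to 1, and so did not pass the threshold. In GFP cells the log2 fold change was -0.22 (SE 0.23). The difference between the Dox effects of both lines was 1.12 (SE 0.32, 95% interval 0.42 to 1.81), with an unadjusted p of 0.00393 and an adjusted p of 0.981 in the same test.

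The counts of RGS10 and RGS2 can be set against each other within a library, where no scaling between libraries enters. In SMARCB1 DMSO there were 3.57 (95% exact interval 3.01 to 4.24) and 2.13 (1.92 to 2.35) RGS10 counts for each RGS2 count. In SMARCB1 Dox there were 18.0 (15.1 to 21.6) and 20.2 (15.4 to 27.1). In GFP DMSO the ratios were 2.32 and 2.47, and in GFP Dox 2.44 and 2.69. The SMARCB1 Dox libraries lay apart from the other 6, which ranged from 2.13 to 3.57. RGS2 made up 2.99% and 3.05% of all counts on the 10 members in the SMARCB1 Dox libraries and 9.65% to 15.8% in the other 6. Since RGS2 was chosen for its counts in these libraries, the ratios are a description.

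**Figure D2:**
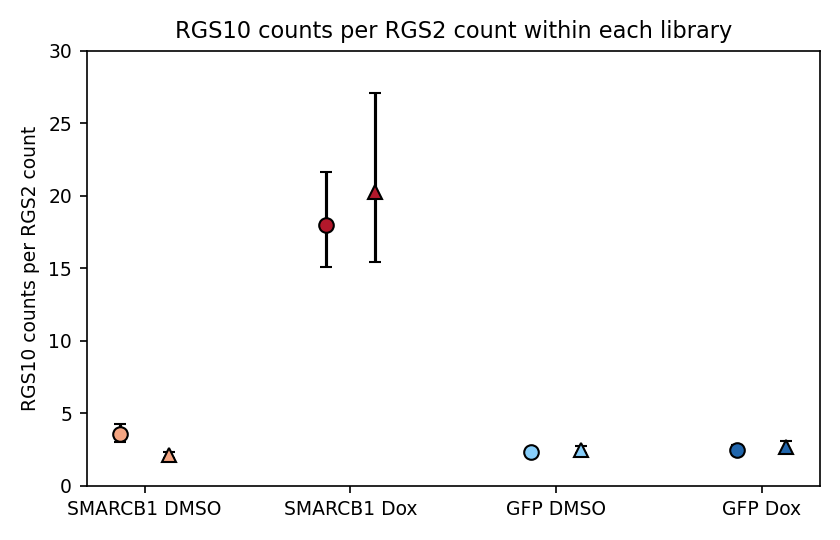
RGS10 counts per RGS2 count (vertical axis, linear from 0) within each of the 8 libraries. Circles are replicate 1, triangles replicate 2 and bars exact 95% binomial intervals, which cover counting error only. The ratio is 18.0 and 20.2 in SMARCB1 Dox and at most 3.57 elsewhere.

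No member passed the threshold (adjusted p below 0.05 and a fold change of at least 2) between SMARCB1 Dox and SMARCB1 DMSO by edgeR quasi-likelihood. Of the 10 members, 7 had enough counts to be tested. Over all genes, 0.018% were called, and 4.97% had an unadjusted p below 0.05. RGS2, chosen on this contrast, is set aside from these counts, and of the other 6 members tested only RGS10 had an unadjusted p below 0.05. DESeq2 called 0.306% of all genes and none of these 6. Libraries of the 2 groups did not overlap for RGS3 and RGS10 among the 6, against 35.6% of all genes, 18.3% lower and 17.3% higher. The median log2 fold change of the 7 members tested, RGS2 included, was -0.14, and that of all genes -0.02.

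The other 5 members tested had log2 fold changes between -0.48 and 0.27 after SMARCB1 re-expression, with adjusted p of 1 by edgeR quasi-likelihood with Benjamini-Hochberg correction. They were -0.40 (SE 0.31) for RGS3, -0.48 (SE 0.39) for RGS20, -0.14 (SE 0.39) for RGS19, -0.11 (SE 0.39) for RGS5 and 0.27 (SE 0.29) for RGS12. Each 95% interval included 0. Leaving out each library in turn gave -1.20 to -0.015 for RGS20. With this spread between libraries, changes of the sizes seen could not be told from no change.

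In GFP cells, Dox moved no member past the threshold, and 0% of all genes were called. No member had an unadjusted p below 0.05, against 2.16% of all genes, and DESeq2 called 0 members. Libraries did not overlap for RGS2 and RGS5, both lower with Dox, against 26.3% of all genes in either direction. The log2 fold changes were 0.62 (SE 0.30) for RGS3, -0.35 (SE 0.44) for RGS5, -0.02 (SE 0.29) for RGS12, -0.31 (SE 0.39) for RGS19 and -0.48 (SE 0.40) for RGS20, each with an adjusted p of 1 by edgeR quasi-likelihood. The difference between the Dox effects of the lines was called for no member and for 0% of all genes, while RGS3 and RGS10 among the 6 members other than RGS2, and 3.99% of all genes, had an unadjusted p below 0.05 for it. DESeq2 called no member for this difference either, and 0.00901% of all genes.

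RGS3, a long member known to act on Gi and Gq and to bind G beta gamma, was the member whose Dox effect in GFP cells moved most when GFP Dox replicate 1 was left out. Its levels were 53.7 and 49.0 CPM in SMARCB1 DMSO, 41.4 and 36.1 CPM in SMARCB1 Dox and 98.6 and 88.8 CPM in GFP DMSO. In GFP Dox they were 197 CPM in replicate 1 and 90.2 CPM in replicate 2, so only replicate 1 was above both GFP DMSO libraries. Without GFP Dox replicate 1 the log2 fold change in GFP cells was -0.05 (SE 0.26) in place of 0.62. Without GFP Dox replicate 2 it was 1.07, and each of these 2 fits leaves a single library in GFP Dox. The difference between the Dox effects was -1.02 (SE 0.44) with all libraries and -0.35 (SE 0.33) without GFP Dox replicate 1. The part of that library's high share of non-unique alignments in the RGS3 value was not tested.

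**Figure D3:**
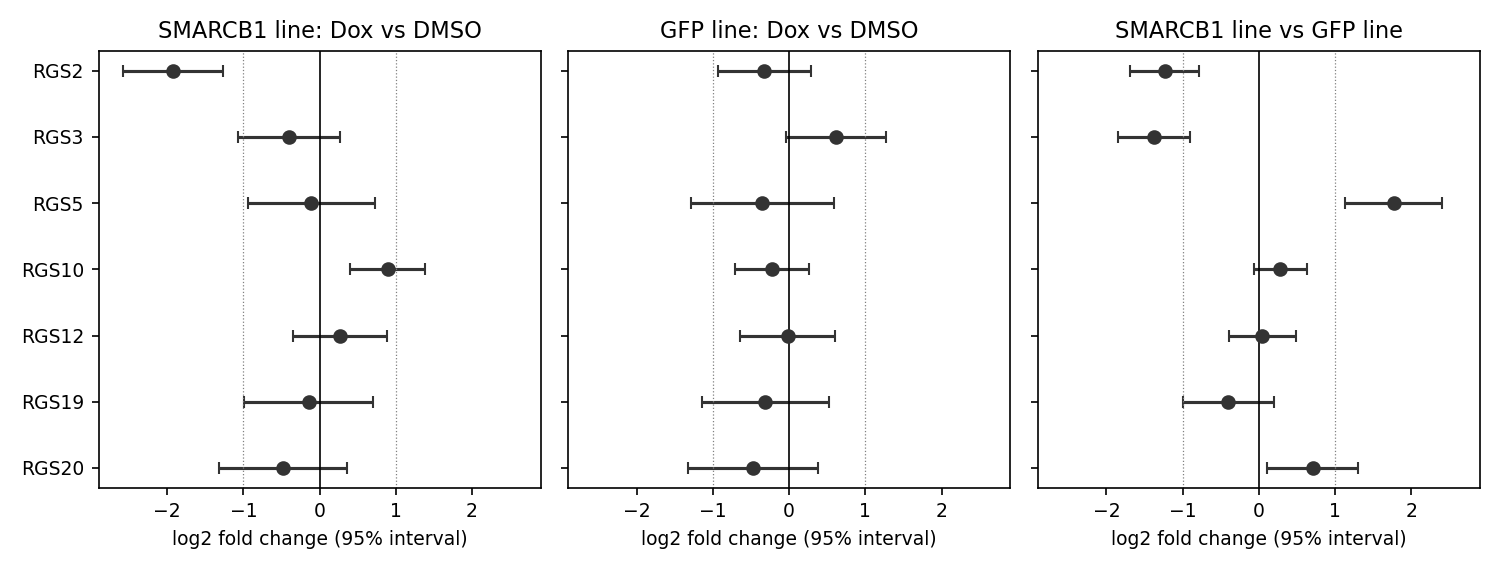
Log2 fold change (horizontal axes) of the 7 members tested, with 95% intervals as bars, for Dox against DMSO in the SMARCB1 line, the same in the GFP line, and the SMARCB1 line against the GFP line over both treatments. Dotted lines mark a fold change of 2. RGS2 lies at -1.92 in the left panel, where it was chosen, and RGS3 at -1.38 and RGS5 at 1.77 in the right panel.

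RGS3 and RGS5 differed between the lines, in opposite directions. Between the SMARCB1 line and the GFP line, averaged over both treatments, RGS3 was lower with a log2 difference of -1.38 (SE 0.22, 95% interval -1.85 to -0.90) and an adjusted p of 0.000561 by edgeR quasi-likelihood with Benjamini-Hochberg correction. All 4 SMARCB1-line libraries, at 36.1 to 53.7 CPM, were below all 4 GFP-line libraries, at 88.8 to 197 CPM. RGS5, known as a marker of pericytes and vascular smooth muscle, was higher in the SMARCB1 line, with a log2 difference of 1.77 (SE 0.30, 95% interval 1.13 to 2.41) and an adjusted p of 0.000837 in the same test. It had 11.2, 16.8, 16.7 and 9.19 CPM in the SMARCB1-line libraries and 3.40 to 4.61 CPM in the GFP-line libraries, again without overlap. The RGS5 counts behind these levels were 58 to 216 and 22 to 63.

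Over all genes, 7.35% were called between the lines, 3.89% higher and 3.46% lower in the SMARCB1 line, and libraries did not overlap for 17.6%, 8.61% higher and 8.95% lower. Of the 6 members tested other than RGS2, RGS3 and RGS5 passed the threshold, as they did with DESeq2, which called 7.82% of all genes. The value of RGS2, -1.24 (SE 0.21), holds the SMARCB1 Dox libraries on which it was chosen, and is a description. RGS20 was higher in the SMARCB1 line by 0.71 (SE 0.28, adjusted p of 0.134 by edgeR quasi-likelihood), RGS10 by 0.29 (SE 0.16) and RGS12 by 0.05 (SE 0.20), while RGS19 was at -0.40 (SE 0.28). None of these 4 passed the threshold.

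The fit of all 8 libraries also compared the lines within DMSO and within Dox. These comparisons take their means from different libraries but share the filter, the scaling and the estimate of spread. They are therefore not independent tests. Where a gene is said to be called with DMSO or Dox alone, it is by these comparisons, not by a separate fit. RGS5 was higher in the SMARCB1 line by 1.65 (SE 0.41, adjusted p of 0.0262) with DMSO and by 1.89 (SE 0.43, adjusted p of 0.0151) with Dox by edgeR quasi-likelihood. RGS3 was at -0.87 (SE 0.31, adjusted p of 0.159) with DMSO, which did not pass. With Dox it was at -1.89 (SE 0.32, adjusted p of 0.0016) in the same test. The difference between these values is that of the Dox effects, which was not called. The Dox value holds GFP Dox replicate 1, where RGS3 was at 197 CPM against 90.2 CPM in replicate 2. RGS2 was at -0.44 (SE 0.28) with DMSO and at -2.03 (SE 0.31) with Dox. RGS10 was at -0.27 (SE 0.23) with DMSO and at 0.84 (SE 0.23) with Dox, where its adjusted p was 0.0419 but its fold change under 2. The genes called were 4.97% of all with DMSO and 6.08% with Dox, against RGS5 with DMSO and RGS3 and RGS5 with Dox among the 6 members other than RGS2.

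**Figure D4:**
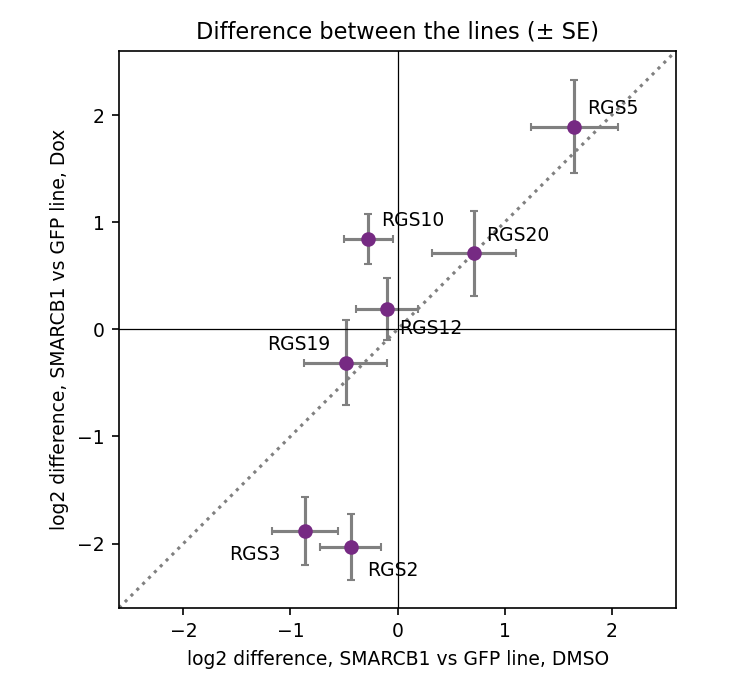
Log2 difference between the SMARCB1 line and the GFP line for the 7 members tested, with DMSO (horizontal axis) and with Dox (vertical axis). Bars are standard errors and the dotted line marks equal values. RGS5, at 1.65 and 1.89, lies near the dotted line. RGS2, at -0.44 and -2.03, and RGS3, at -0.87 and -1.89, lie below it, and RGS10, at -0.27 and 0.84, above it.

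RGS4, a Gi- and Gq-directed member of the brain and heart, was detected in the GFP line alone and at few counts. It had 13 and 7 counts in GFP DMSO and 9 and 0 in GFP Dox, and 0 in all 4 libraries of the SMARCB1 line. The summed counts, 29 against 0, allow a ratio of the SMARCB1 line to the GFP line of up to 0.144 (upper exact 95% counting limit), and of up to 0.22 without SMARCB1 DMSO replicate 2, the deepest library of that line. Within the GFP line the summed counts gave a ratio of Dox to DMSO of 0.933 (95% counting interval 0.374 to 2.14). All 9 Dox counts came from replicate 1, so this ratio rests on a single library.

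RGS4 had too few counts to be tested, and its counts by line are a description. It was low even in the GFP line, at 0.85 CPM per kb in GFP DMSO against 6.82 for its neighbour RGS5. RGS16, an inducible member that also carries the TGC codon after its start, had 0 counts in 8 libraries, which allows up to 0.0392 CPM over all of them. RGS17 had 0 counts too, with the same limit, and 84 of its 603 windows of 28 bases occur more than once in the genome.

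RGS20 and RGS19, which share the cysteine string and act on Gi and Gz, did not pass the threshold in any comparison. RGS20 had 77.1 and 45.1 CPM in SMARCB1 DMSO, 60.2 and 26.5 CPM in SMARCB1 Dox, 48.6 and 25.8 CPM in GFP DMSO and 25.1 and 28.2 CPM in GFP Dox. Replicate 1 was the higher in each group but GFP Dox. RGS19 had 11.5 and 10.9, 12.1 and 7.93, 14.0 and 17.3, and 7.94 and 17.2 CPM in the same order. Its GFP Dox libraries lay near the lowest and the highest of the 8. RGS12, a large scaffold with PDZ and other domains, ranged least of the detected members relative to its level, from 15.8 to 25.0 CPM, with group means of 18.8 ± 4.17, 22.8 ± 3.16, 20.2 ± 2.33 and 20.0 ± 1.25 CPM (SD, n = 2 each).

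Over the 8 libraries, the log2 CPM of RGS10 ran against that of RGS2, with a Pearson r of -0.81, and RGS3 ran with it at 0.69. RGS5 was at -0.52, RGS12 at -0.42, RGS19 at 0.45 and RGS20 at -0.07. These values describe 8 libraries that share 4 group means, and they carry no test. Among 6032 genes that varied enough to compare, those most like RGS2 were MMP16 (r 0.98), TOM1L2 (0.97), PDP2 (0.96), TCEANC2 (0.96) and CHEK2 (0.95). MMP16 was at low levels throughout, 0.837 and 0.317 CPM in SMARCB1 Dox and 1.50 to 3.37 CPM elsewhere, so its r rests on few counts. TOM1L2 had 95.3 and 96.5 CPM in SMARCB1 Dox and 140 to 214 CPM elsewhere. The most opposite were DOP1B (-0.99), LRP8 (-0.98), the receptor tyrosine kinase AXL (-0.97), NPPB (-0.96) and SMARCB1 (-0.96). SMARCB1 was counted in SMARCB1 Dox alone, the group in which RGS2 was chosen as low, so its negative r was set in advance. NPPB had 1.76 and 2.85 CPM in SMARCB1 Dox, less in SMARCB1 DMSO and 0 CPM in every GFP-line library. Its negative r, at low levels, follows from the same choice, and both values are a description. With a prior count of 0.5 in place of 2, CHEK2 and NPPB left these lists of 5. AXL had 91.8 CPM or more in both SMARCB1 Dox libraries and 34.2 to 40.2 CPM in the other 6 libraries.

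None of the tested genes of the list of other RGS-domain proteins and partners that bind R7 RGS proteins was called after re-expression of SMARCB1. Over all genes, 0.018% were called in that comparison. Of 29 listed, 17 were tested, 1 of them, RGS1, with an unadjusted p below 0.05 (4.97% of all genes), with a median log2 fold change of 0.10 against -0.02 for all genes. RGS1, a leukocyte regulator that lies 229 kb from RGS2 on chromosome 1, had 5.34 and 6.31 CPM in SMARCB1 DMSO, 1.34 and 2.06 CPM in SMARCB1 Dox, 9.95 and 9.52 CPM in GFP DMSO and 8.77 and 2.96 CPM in GFP Dox. Its log2 fold change in SMARCB1 cells was -1.82 (SE 0.56, adjusted p of 0.536 by edgeR quasi-likelihood), from 16 and 13 counts with Dox. RGS1 was lower in the SMARCB1 line than in the GFP line by a log2 difference of -1.27 and passed the threshold there, though with neither DMSO nor Dox libraries alone, while AXIN2 (1.39) and SNX25 (1.38) were higher and were called with the Dox libraries alone but not with the DMSO libraries alone. These are 3 called of 17, where 7.35% of all genes were called.

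The G proteins that RGS2 acts on were not called. GNAQ, the alpha subunit of Gq, had 17.7 and 19.2 CPM in SMARCB1 DMSO and 21.3 and 19.8 CPM in SMARCB1 Dox, a log2 fold change of 0.15 (SE 0.30). GNA11, its close relative, was at 0.06 (SE 0.31). GNAI1, an inhibitory alpha subunit and a substrate of RGS10, had 10.7 and 15.1 CPM in SMARCB1 DMSO, 26.4 and 29.6 CPM in SMARCB1 Dox and 26.8 to 36.6 CPM in the GFP line. Its log2 fold change of 1.10 (SE 0.29) had an adjusted p of 0.401 by edgeR quasi-likelihood and was not called. Of 16 alpha subunits, 11 were tested and 0 were called with Dox in the SMARCB1 line, where 0.018% of all genes were called. Their median was 0.18 against -0.02 for all genes. Between the lines, GNAT3 was called higher in the SMARCB1 line (3.31), where 7.35% of all genes were called, and it was called with DMSO and with Dox alone. GNAL had 18 to 33 counts in the SMARCB1-line libraries and 8, 16, 0 and 1 in the GFP-line libraries, and it entered the test only through the SMARCB1 line, so these counts are a description. With DMSO alone, GNAI1 was called lower in the SMARCB1 line (-1.25, adjusted p of 0.0179 by edgeR quasi-likelihood), where 4.97% of all genes were called in either direction. With Dox alone GNAI1 was at -0.18 (adjusted p of 0.798) and over both treatments at -0.72, and neither was called.

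Of 17 beta and gamma subunits, 9 were tested and 0 were called after re-expression of SMARCB1, where 0.018% of all genes were called, and GNG12 was called higher in the SMARCB1 line than in the GFP line (1.80), with DMSO and with Dox alone too, where 7.35% of all genes were called over both treatments. GNG11 had 8 to 25 counts in the 4 SMARCB1-line libraries and 0 in the 4 GFP-line libraries. It entered the test only through the line where it is high, so these counts are a description. Of 29 effectors and enzymes of second messengers, 20 were tested and 0 were called with Dox in the SMARCB1 line. PLCB3, a phospholipase C beta activated by Gq, was at 0.07 (SE 0.24). Between the lines, ITPR1, the calcium channel opened by inositol trisphosphate, was lower (-2.03), with DMSO and with Dox alone too. PDE5A was lower as well (-1.51), but was not called with Dox alone (-1.04, adjusted p of 0.0556 by edgeR quasi-likelihood). PLCB2 (-1.04, adjusted p of 0.024) and PRKAR2B (-1.13, adjusted p of 0.046) were called lower with Dox alone in the same test. The PRKAR2B value holds GFP Dox replicate 1, at 545 CPM against 295 CPM in replicate 2, with SMARCB1 Dox at 218 and 166 CPM. With Dox alone, 6.08% of all genes were called. PDE4D had 14 to 37 counts in the SMARCB1-line libraries and 0 in the GFP-line libraries, again a description since it entered the test through the SMARCB1 line alone.

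Of 32 Gq-coupled receptors, 8 were tested, and none was called after re-expression of SMARCB1, where 0.018% of all genes were called. ADRA1B, the alpha-1B adrenergic receptor, had 101 to 221 counts in the 4 GFP-line libraries, 0 and 0 in SMARCB1 DMSO and 1 and 4 in SMARCB1 Dox. It entered the test only through the GFP line, and these counts are a description. RGS2 is itself a target of cyclic AMP and calcium signals, and of 23 immediate early and CREB target genes 16 were tested and 0 were called with Dox in the SMARCB1 line, with a median of 0.44 against -0.02 for all genes. FOS was lower in the SMARCB1 line than in the GFP line (-2.08), and KLF6 (1.20) was higher, where 7.35% of all genes were called. KLF6 was called with DMSO and with Dox alone, and FOS with DMSO alone (with Dox, -1.45, adjusted p of 0.116 by edgeR quasi-likelihood). With Dox alone CCN1 was called higher (1.29, adjusted p of 0.0068 in the same test). Among the receptors F2RL1 was called lower (-1.08, adjusted p of 0.028) with Dox alone, where 6.08% of all genes were called. JUN had 9 to 91 counts in the SMARCB1-line libraries and 2 to 14 in the GFP-line libraries, a description, since it too entered the test only through the line where it is high. RGS2 is also known to bind the epsilon subunit of the initiation factor eIF2B, encoded by EIF2B5. EIF2B5 was at -0.11 (SE 0.28) with Dox in the SMARCB1 line, and 0 of the 5 eIF2B subunits were called in any comparison. The share of all genes called ran from 0%, for Dox in GFP cells, to 7.35% between the lines.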

How the data were processed

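The members and gene lists were chosen with earlier results of these data known. The authors aligned ribosome profiling reads (RiboLace, LACEseq) to hg38 with STAR and counted them with HTSeq over coding sequences, intersection-strict, with GENCODE 42; versions and strand setting are not given in the sources used here. The deposited files hold raw counts per gene, and 5 HTSeq summary rows per file were left out of library totals (no feature, 36.6% to 45.9% of uniquely aligned reads). Symbols came from GENCODE 44 by identifier, matched for 20426 of 20719. RNA-seq was not analysed here, so footprints are not translation efficiencies.

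Counts were fitted with edgeR 4.0.16 (R 4.3.3), quasi-likelihood, TMM scaling, 4 groups and filterByExpr (11097 genes). A gene was called at an adjusted p below 0.05 and a fold change of at least 2. Alternatives were DESeq2 1.42.0, other scalings and filters, a replicate block and leaving out each library. Counting intervals are exact (95%). Genes named were the members, the list genes called (at most 4) or of smallest p, and the 5 highest and 5 lowest correlations with RGS2 (prior count 2, log2 range at least 1). GNAQ, GNA11, PLCB3 and EIF2B5 were named outside this rule, after their values were seen. The canonical coding length as an alternative for levels was chosen after seeing the data and left the order of the members as it was. Replicate numbers were not treated as pairs.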

Additional observations from a re-analysis of the deposited data

How the results depend on the processing

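Every call rests on 2 libraries in each group. RGS2 was chosen on SMARCB1 Dox against SMARCB1 DMSO, so its calls there and between the lines describe the settings and test nothing. Between SMARCB1 Dox and SMARCB1 DMSO 0 members were called. Several other settings called 1, RGS2, among them DESeq2 and no filter on low counts. Of all genes, 0.306% were called with DESeq2 and 0.321% without a filter. Leaving out each library gave log2 fold changes of -2.19 to -1.57 for RGS2. In GFP cells RGS3 was at -0.055 without GFP Dox replicate 1 and at 1.07 without GFP Dox replicate 2. Calls from fits that leave a single library in a group are not given, so these lists of calls leave them out. Between the lines 3 were called, RGS2 among them, and 1, RGS5, with DMSO libraries alone, against 7.35% and 4.97% of all genes. Without a filter 4 were called between the lines, where 6.43% of all genes were called. The fourth was RGS4, which has counts in the GFP line alone, so that call too tests nothing. Why these counts differ was not tested.

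The replicate block called 1 member, RGS2, between SMARCB1 Dox and SMARCB1 DMSO, where it called 13 of all genes against 2, and changed no other call of a member. Same-numbered libraries had correlated deviations of 0.0454 to 0.28 over 6 pairs of groups, with no shared day or batch named.

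The log2 values that changed sign were not called with all libraries, and there each lay within 2 SE of 0 except that of RGS3 in GFP cells. With DESeq2's size factors the difference between the Dox effects of the lines was 0.0024 for RGS20, and with library size alone it was 0.17, while RGS5 was at 0.0099 with Dox in the SMARCB1 line. The RGS20 difference was 0.034 without a filter and 0.0088 where every library needed 10 counts or more. With DMSO alone, the lines differed by -0.27 in RGS10 and -0.099 in RGS12. Leaving out each library in turn gave, with Dox in the SMARCB1 line, -0.62 to 0.25 for RGS5 and -0.50 to 0.12 for RGS19. In GFP cells it gave -0.055 to 1.07 for RGS3, -0.13 to 0.086 for RGS12, -0.98 to 0.13 for RGS19 and -0.88 to 0.051 for RGS20. For the difference between the Dox effects it gave -0.26 to 0.60 for RGS5, -0.27 to 0.84 for RGS19 and -0.72 to 0.46 for RGS20, and between the lines -0.082 to 0.15 for RGS12. A group left with 1 library was assumed to vary like the others.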
